A study of Arabidopsis thaliana with 9 samples.

Results

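Of the 33602 genes in the read count table of Arabidopsis thaliana leaves, 34 nuclear genes for the proteins of the light reactions were followed across all 9 libraries. They were listed by identifier: 12 encode subunits of photosystem I (PSAD1 to PSAO), 12 encode subunits or assembly proteins of photosystem II (PSBO1 to PSBY, PSB27 and PSB28), 7 encode carriers of the electron transport chain (PETC, PETE1, PETE2, FD1, FD2, LFNR1 and LFNR2) and 3 encode subunits of the chloroplast ATP synthase (ATPC1, ATPD and ATPG). No measured value entered the choice of the list, although results of these data were already known when it was drawn up. All 34 were expressed well above the filter on low counts and were tested. All 34 identifiers were found in the TAIR10.1 annotation.

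Photosystem II takes electrons from water at the oxygen-evolving complex and passes them through the plastoquinone pool to the cytochrome b6f complex. Plastocyanin carries them on through the thylakoid lumen to photosystem I, and ferredoxin and ferredoxin-NADP+ reductase hand them to NADP+ on the stromal side. ATP synthase uses the proton gradient built up on the way. The reaction centre cores are encoded in the chloroplast genome, and the nucleus supplies the peripheral, lumenal and stromal subunits, many of them in Arabidopsis from pairs of closely related genes.

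The plants were of the wild type Col-0 and grew in days of 16 h light, at a photon flux of 350 μmol m-2 s-1, and 8 h dark. Control plants (CK) had days of 23 °C and nights of 18 °C. Prolonged warming (PW) meant days of 28 °C and nights of 23 °C over a span of 7 days that began 23 days after sowing. Heat shock (HS) meant 38 °C for 6 h, within the day part of the light cycle. Leaves of all 3 treatments were taken 30 days after sowing. Each treatment had 3 libraries, described as biological replicates. The comparisons asked how the leaf transcriptome differed between a mild warming of days and a short severe heat.

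The libraries held from 11660970 to 17768334 counts on genes. Levels are given as CPM, the counts of a gene relative to the scaled total of its library in units of 1000000 counts. Scaling was by TMM, a factor that sets most genes level between libraries. It was lowest, 0.812, in a PW library and highest, 1.22, in a CK library. Of the 4 heat response genes listed to check the HS label, HSP101, HSP21 and APX2 were called higher in HS than in CK and HSFA2 was not. Their summed level was 1373, 1474 and 564 CPM in HS replicates 1, 2 and 3, 13.8 to 18.0 in CK and 11.3 to 18.4 in PW. HS replicate 3 also correlated less with HS replicates 1 and 2 over the tested genes (Pearson 0.912 with each) than these did with each other (0.987). Markers of other tissues differed among libraries of a treatment. PDF1, a gene of the epidermis, stood at 0.0776, 0.247 and 145 CPM in the HS libraries, at 92.6, 0.866 and 71.6 in PW and at 103 to 181 in CK. The summed level of the 5 root markers was 16.6 to 31.0 CPM for CK, 0.289 to 54.6 for PW and 0.0824 to 15.8 for HS. Nearly all of the higher sums came from PYK10 alone (53.8 CPM of the 54.6), and RHD6, COBL9, CASP1 and RCI3 were at or near 0. The 3 epidermal markers summed to 402 to 475 CPM in CK, 288 to 312 in PW and 276 to 305 in HS. In the sum every warmed library lay below every CK library, while the 34 genes as a group were higher. PDF1, with its uneven levels, made up 103 to 181 CPM of the CK sums. Gene by gene, 1 of the 3 lay below CK without overlap in PW, which was PDF1, and 2 overlapped CK. In HS 1 of the 3, a gene other than PDF1, lay below CK and 2 overlapped it. The part of the epidermis in the results was not tested. For the 3 floral markers the sum was 0.975 to 13.4, 2.31 to 16.5 and 1.32 to 1.56. The 5 markers of mesophyll, the main photosynthetic tissue, were CA1, RCA, GAPA, SBPASE and PRK. They summed to between 5685 and 8025 CPM in CK, between 14797 and 28461 in PW and between 11018 and 20872 in HS. These markers are themselves genes of photosynthesis, so their sum is no separate measure of the amount of mesophyll. Since the leaves were sequenced whole, a change in the number of mesophyll cells and a change of RNA per cell cannot be told apart.

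The hour of sampling was not given in the sources used here, and genes of the circadian clock differed strongly between treatments. CCA1, a clock gene that peaks around dawn, stood at 1.26 to 1.48 CPM in CK, 27.0 to 105 in PW and 125 to 160 in HS. PRR9, a morning gene, stood at 0.631 to 1.02, 33.0 to 78.8 and 26.1 to 44.5. Their evening partner TOC1 stood at 169 to 185, 46.4 to 49.0 and 65.8 to 109, and LUX, of the evening complex, at 92.7 to 104, 20.5 to 24.7 and 26.1 to 35.0. In these 4 genes the ranges of PW and HS lay on the same side of CK without touching it. PW and HS also lay apart from each other in CCA1, TOC1 and LUX, and overlapped in PRR9. Many genes of the light reactions have a daily rhythm, so a difference in the hour or phase of sampling and the temperature treatment cannot be told apart in any of the 3 comparisons.

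**Figure D1:**
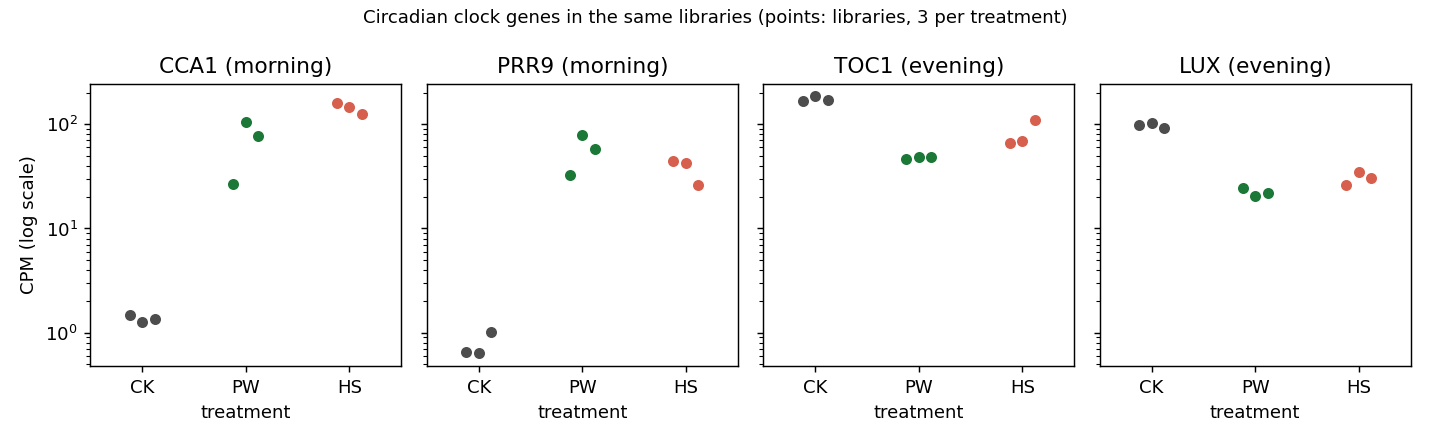
Level in CPM (vertical axis, log scale) of 4 circadian clock genes in each library (points), by treatment. CCA1 and PRR9 lie lowest in CK, at 1.26 to 1.48 and 0.631 to 1.02 CPM, and TOC1 and LUX lie highest there, at 169 to 185 and 92.7 to 104 CPM.

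As a group the transcripts of these 34 genes were more abundant in the warmed leaves than in the controls, and more so after prolonged warming than after heat shock. Together they took up 4.63 ± 0.547% of all counts in CK, 8.90 ± 0.835% in PW and 6.87 ± 1.23% in HS (mean ± SD, n = 3). The lowest PW library (8.01%) lay above the highest HS library (7.64%), and the lowest HS library (5.46%) above the highest CK library (5.07%). By group, photosystem I took 1.69% of counts in CK, 3.23% in PW and 2.31% in HS, and photosystem II 2.04%, 4.06% and 3.32%. The electron carriers took 0.672%, 1.19% and 0.953%, and the ATP synthase subunits 0.234%, 0.417% and 0.287%. These shares are relative to the library totals, without TMM, and were not tested, as the genes were picked with earlier results known.

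Gene by gene, a difference was called where the adjusted p was under 0.05 and the change at least 2-fold. In PW vs CK 25 of the 34 were called higher and 0 lower, where 8.82% of all tested genes were called higher and 7.6% lower. The median log2 fold change of the 34 was 1.24, against -0.04 over all tested genes, and in 33 of the 34 every PW library lay above every CK library, as it did in 25.3% of all genes. In HS vs CK 11 were called higher and 0 lower, against 11.3% and 10.5% of all genes, with a median of 0.58 against 0.03. Every HS library lay above every CK library in 16 of the 34 and below in 2, as in 29.7% and 28.2% of all genes. The other 16 overlapped. Both of these comparisons use the same CK libraries and are not independent of each other. In PW vs HS 6 were called higher and 1 lower, against 6.92% and 7.57% of all genes, with a median of 0.71 against -0.02. The mean level followed the order PW, HS, CK in 29 of the 34 genes. It was PW, CK, HS in 4 (PSAO, PSB28, FD2 and LFNR2), and HS, PW, CK in FD1 alone.

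The number of calls in PW vs CK depended on the scaling. With library totals in place of TMM it fell to 12 and the all-gene median moved to -0.45. The split of calls over all genes moved from 8.82% higher and 7.6% lower to 4.44% and 16%. The median of the 34 lay 1.26 above that of all genes, compared with 1.28 under TMM. The 13 calls lost were of PSAD1, PSAE2, PSAF, PSAG, PSAL, PSBP1, PSBQ2, PSB27, PETE1, LFNR2, ATPC1, ATPD and ATPG. The remaining 12 calls of PW vs CK, named here as PSAD2, PSAE1, PSAH1, PSAH2, PSAN, PSBO1, PSBO2, PSBR, PSBY, PETE2, FD1 and LFNR1, passed under either scaling. In HS vs CK library totals gave 8 calls, without PSAH2, PETE2 and ATPG, and in PW vs HS 5, without ATPC1 and ATPD. In HS vs CK the log2 fold changes of PSAK, PSBTN, PETC, ATPC1 and ATPD, all uncalled, turned from above 0 to below it.

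**Figure D2:**
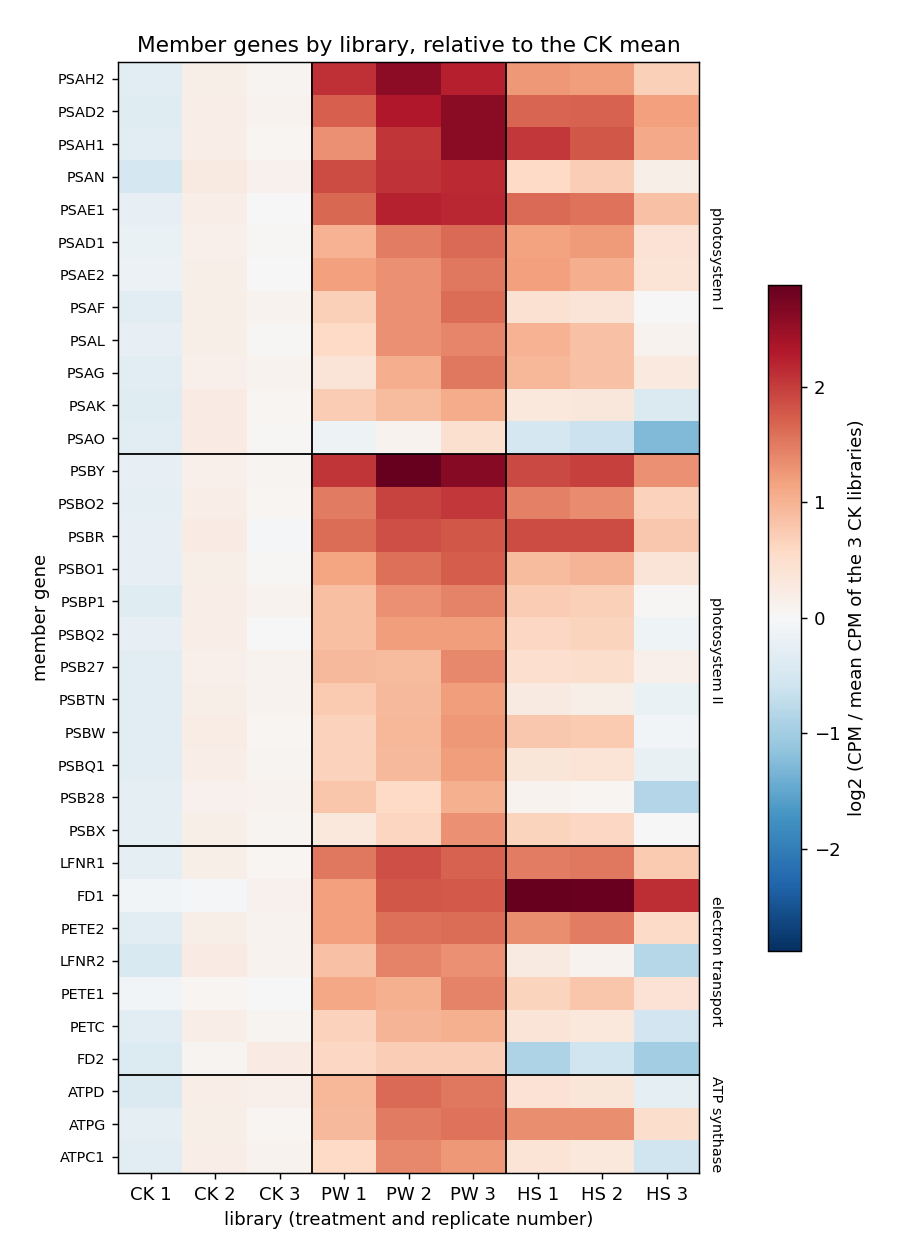
Level of each of the 34 genes in each library, as log2 of its CPM over the mean CPM of the 3 CK libraries (colour scale), with genes grouped by complex and sorted by their change in PW vs CK. The PW columns are the reddest for most genes, FD1 is reddest in HS 1 and HS 2, and PSAO and FD2 are blue in all 3 HS libraries.

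CK replicate 1 had the lowest level of its treatment for 34 of the 34 genes and HS replicate 3 for 34, while PW replicate 1 was lowest for 31 and PW replicate 3 highest for 25. The median ratio to the mean of the treatment was 0.814 in CK replicate 1, 0.796 in PW replicate 1 and 0.695 in HS replicate 3. CK replicate 1 and PW replicate 1 were also those with the most AP3 and PI, the floral organ genes, in their treatments, and HS replicate 3 was the HS library with PDF1. HS replicate 3 also had the lowest summed level of the heat response genes in HS, 564 CPM against 1373 and 1474. The part of these differences in the spread was not tested. With those 3 libraries left out, which was decided after the levels were seen, 13 genes were called in HS vs CK, 25 in PW vs CK and 7 in PW vs HS. The coefficient of variation among the 3 libraries of a treatment had a median over the genes of 16.5% in CK, 19.4% in PW and 26.7% in HS.

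Promoter sequences are shown for a gene with a large rise, for a gene rich in light-related motifs, and for FD1 and FD2, whose levels parted in HS. The window was the 250 bases before the annotated start of each gene in TAIR10.1 (RefSeq), searched on both strands for 4 motifs. GATAAG, the I-box found in many light-regulated promoters, was in 9 of the 34 windows (26.5%) and in 12.3% of the 27443 windows of all protein-coding genes. CACGTG, the G-box, was in 7 (20.6%) against 6.49%. AAATATCT, the evening element of clock-regulated promoters, was in 1 (ATPC1) against 4.79%. GAANNTTC, a pair of heat shock element units, was in 1 (FD1) against 9.55%. A match is a description of the letters and not of a bound site. The windows of PSBQ2, PSBY and FD2 are free of other annotated genes and are given 5′ to 3′ on the strand of the gene, with motif matches in capitals. PSBQ2 had the most matches among such windows, PSBY had the largest rise in PW vs CK and none of the motifs, and FD2 was lower in HS than in CK and had none.
PSBQ2, chr4:2673244-2673493, minus strand: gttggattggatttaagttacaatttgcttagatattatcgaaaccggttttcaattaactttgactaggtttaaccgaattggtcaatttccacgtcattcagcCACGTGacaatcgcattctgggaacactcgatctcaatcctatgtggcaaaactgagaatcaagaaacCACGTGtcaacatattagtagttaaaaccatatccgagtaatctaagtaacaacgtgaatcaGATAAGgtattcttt
PSBY, chr1:25395250-25395499, minus strand: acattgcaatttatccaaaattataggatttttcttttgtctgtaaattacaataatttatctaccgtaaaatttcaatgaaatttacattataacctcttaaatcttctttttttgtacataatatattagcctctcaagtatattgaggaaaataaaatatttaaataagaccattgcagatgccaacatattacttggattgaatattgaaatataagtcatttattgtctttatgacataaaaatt
FD2, chr1:22444057-22444306, plus strand: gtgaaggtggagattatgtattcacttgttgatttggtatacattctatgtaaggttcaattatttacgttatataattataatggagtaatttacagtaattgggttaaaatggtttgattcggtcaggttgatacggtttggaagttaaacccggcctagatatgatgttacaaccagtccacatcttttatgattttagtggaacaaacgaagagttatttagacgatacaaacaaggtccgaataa
The window of FD1 lies wholly within the annotated end of its upstream neighbour AT1G10950, so only the 30 bases around the match to the heat shock element, which begins 150 bases before the annotated start of FD1, are given.
FD1, chr1:3664026-3664055, plus strand: agtccttctaaGAAAATTCtgactcaagtc

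In photosystem I 10 of 12 genes were called higher in PW vs CK and 4 in HS vs CK. PW vs HS had 2 calls higher, and none of the 3 comparisons a call lower. PSAD and PSAE form, with PSAC, the stromal face where ferredoxin docks, and each is encoded by a pair of genes. The more abundant PSAD1 (AT4G02770) stood at 1354, 1708 and 1582 CPM in the CK libraries, 3110.4, 4326 and 4774 in the PW libraries and 3471, 3649 and 2054 in the HS libraries. Its partner PSAD2 (AT1G03130) stood at 455, 659 and 619 CPM in the CK libraries, 1893, 2854 and 3523 in the PW libraries and 1841, 1878 and 1318 in the HS libraries. The 3 treatments did not overlap in PSAD2, with PW highest and CK lowest. In PSAD1 both warm treatments lay above CK, and HS replicates 1 and 2 lay within the range of PW. PSAD2 rose by a log2 fold change of 2.25 (SE 0.30, adjusted p = 0.000902) in PW vs CK and 1.54 (SE 0.29, adjusted p = 0.0035) in HS vs CK. PSAD1 rose by 1.39 (SE 0.29, adjusted p = 0.00678) in PW vs CK, and its 0.98 (SE 0.28, adjusted p = 0.0234) in HS vs CK was short of the 2-fold limit and passed it without HS replicate 3 (1.2, adjusted p = 0.00319).

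PSAE1 (AT4G28750) stood at 1076, 1467 and 1285 CPM in the CK libraries, 4047, 5896 and 5748 in the PW libraries and 3935, 3785 and 2275 in the HS libraries. PSAE2 (AT2G20260) was lower, at 344, 437 and 386 CPM in the CK libraries, 881, 976 and 1113 in the PW libraries and 885, 809 and 513 in the HS libraries. Both lay above CK in all 6 warmed libraries, and HS replicate 3 was the lowest of these in each. PSAE1 rose by 2.04 (SE 0.29, adjusted p = 0.00133) in PW vs CK and by 1.38 (SE 0.29, adjusted p = 0.00562) in HS vs CK. PSAE2 rose by 1.35 (SE 0.24, adjusted p = 0.00337) in PW vs CK and had 0.92 (SE 0.24, adjusted p = 0.0142) in HS vs CK, under the 2-fold limit. It passed without CK replicate 2 (1.0, adjusted p = 0.035) or HS replicate 3 (1.12, adjusted p = 0.0013).

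PSAH, PSAL and PSAO lie on the side of photosystem I where light-harvesting complex II binds during state transitions. PSAH1 (AT3G16140) stood at 193, 271 and 247 CPM in the CK libraries, 594, 997 and 1446 in the PW libraries and 968, 818 and 507 in the HS libraries. PSAH2 (AT1G52230) stood at 382, 526 and 497 CPM in the CK libraries, 2007, 2811 and 2214 in the PW libraries and 1111, 1072 and 759 in the HS libraries. In PSAH2 the treatments did not overlap, and in PSAH1 PW replicate 1 lay within the range of HS and PW replicates 2 and 3 above it. PSAH2 had the largest rise of photosystem I in PW vs CK, 2.32 (SE 0.25, adjusted p = 0.000416), a 5.01-fold change. It also rose by 1.07 (SE 0.24, adjusted p = 0.008) in HS vs CK and by 1.26 (SE 0.24, adjusted p = 0.00561) in PW vs HS. PSAH1 rose by 2.09 (SE 0.36, adjusted p = 0.00305) in PW vs CK and by 1.69 (SE 0.36, adjusted p = 0.00608) in HS vs CK. The HS vs CK call of PSAH2 was lost without CK replicate 1 or HS replicate 1, where its log2 fold change was 0.93, adjusted p = 0.0355 and 0.97, adjusted p = 0.0319.

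PSAO (AT1G08380) went against the rest of its complex. It stood at 1789.5, 2666 and 2319 CPM in the CK libraries, 2037, 2416 and 3124 in the PW libraries and 1580.5, 1462 and 934 in the HS libraries. The PW libraries overlapped CK, and the 3 HS libraries all lay below CK and PW. Its log2 fold change was 0.16 (SE 0.28, adjusted p = 0.691) in PW vs CK, and turned to -0.26 when libraries were scaled by their totals. In HS vs CK it was -0.77 (SE 0.28, adjusted p = 0.0561) and in PW vs HS 0.93 (SE 0.28, adjusted p = 0.038), neither of them called, and without PW replicate 1 the latter passed (1.06, adjusted p = 0.0348). Per kilobase of exon PSAO was the gene with rank 2 of the 34 in CK, 15 in PW and 16 in HS. PSAL (AT4G12800) stood at 1676, 2238 and 2042 CPM in the CK libraries, 2956, 4941 and 5287 in the PW libraries and 3965, 3592 and 2132 in the HS libraries. It rose by 1.15 (SE 0.32, adjusted p = 0.0244) in PW vs CK, with no overlap, and was not called in HS vs CK (0.70 (SE 0.32, adjusted p = 0.106)).

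PSAN and PSAF face the lumen, where PSAF takes part in docking plastocyanin. PSAN (AT5G64040) stood at 622, 1066 and 965 CPM in the CK libraries, 3268, 3737 and 3903 in the PW libraries and 1312, 1457 and 998 in the HS libraries. The PW libraries stood apart from the other 6, which overlapped each other. PSAN rose by 2.04 (SE 0.27, adjusted p = 0.000901) in PW vs CK, a 4.11-fold change. Its rise of 1.53 (SE 0.26, adjusted p = 0.00335) in PW vs HS was the largest of the 34 genes there, and in HS vs CK it had 0.51 (SE 0.26, adjusted p = 0.145). PSAF (AT1G31330) stood at 1501, 2143 and 2032 CPM in the CK libraries, 3059.9, 4715 and 5792 in the PW libraries and 2571, 2434 and 1896 in the HS libraries. It rose by 1.26 (SE 0.29, adjusted p = 0.011) in PW vs CK, and its 0.98 (SE 0.29, adjusted p = 0.0342) in PW vs HS was just under the 2-fold limit and passed it without PW replicate 1 (1.19, adjusted p = 0.0135).

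PSAG and PSAK are membrane subunits at the outer edges of the complex. PSAG (AT1G55670) stood at 1404, 1921 and 1870.1 CPM in the CK libraries, 2246, 3569.8 and 4987 in the PW libraries and 3339, 3116 and 2121 in the HS libraries. PSAK (AT1G30380) stood at 1214, 1822 and 1601 CPM in the CK libraries, 2570.1, 2926 and 3255 in the PW libraries and 1897, 1953 and 1154 in the HS libraries. All PW libraries lay above all CK libraries in both genes, and HS overlapped CK in PSAK. PSAG rose by 1.06 (SE 0.33, adjusted p = 0.0365) in PW vs CK. PSAK had 0.92 (SE 0.27, adjusted p = 0.0295) in PW vs CK, under the 2-fold limit, and 0.11 (SE 0.27, adjusted p = 0.766) in HS vs CK. The PW vs CK calls of PSAG and PSAL were lost when any CK library, PW replicate 2 or PW replicate 3 was left out, and that of PSAG also without HS replicate 2. Over all single libraries left out the log2 fold change lay between 0.75 and 1.31 for PSAG and between 0.99 and 1.37 for PSAL. With the replicate number as a block in the fit of all 9 libraries, PSAG had an adjusted p of 0.071 and PSAL an adjusted p of 0.0512. With the block and the CK and PW libraries alone both stayed called.

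In photosystem II 7 of 12 genes were called higher in PW vs CK and 3 in HS vs CK. PW vs HS had 0 calls by edgeR, although 3 of the 12 had an adjusted p under 0.05 there. In all 12 every PW library lay above every CK library. PSBO, PSBP and PSBQ are the lumenal proteins that shield the manganese cluster of the oxygen-evolving complex. PSBO1 (AT5G66570) stood at 2307, 3090.3 and 2801 CPM in the CK libraries, 5997, 8165 and 9222 in the PW libraries and 5151, 5348 and 3516 in the HS libraries. PSBO2 (AT3G50820) stood at 518, 721 and 665 CPM in the CK libraries, 1785, 2441 and 2601 in the PW libraries and 1749, 1619.6 and 1011 in the HS libraries. In both genes the treatments did not overlap, in the order PW, HS, CK. PSBO1 rose by 1.51 (SE 0.28, adjusted p = 0.00402) in PW vs CK, and its 0.77 (SE 0.27, adjusted p = 0.0496) in HS vs CK was under the 2-fold limit. PSBO2 rose by 1.84 (SE 0.28, adjusted p = 0.00165) in PW vs CK and 1.2 (SE 0.27, adjusted p = 0.00832) in HS vs CK.

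PSBP1 (AT1G06680) stood at 2069, 3029 and 2822 CPM in the CK libraries, 4835, 6531 and 7083 in the PW libraries and 4419, 4258 and 2723 in the HS libraries. PSBQ1 (AT4G21280) stood at 1122, 1569 and 1452 CPM in the CK libraries, 2189, 2643 and 3181 in the PW libraries and 1755, 1801 and 1192 in the HS libraries. PSBQ2 (AT4G05180) stood at 1613, 2169.7 and 1929 CPM in the CK libraries, 3483, 4369 and 4415 in the PW libraries and 2870.1, 2972 and 1735.4 in the HS libraries. In these 3 genes the HS libraries overlapped CK and the PW libraries lay above all others. PSBP1 rose by 1.22 (SE 0.29, adjusted p = 0.012) and PSBQ2, whose window carries the 2 G-boxes printed above, by 1.1 (SE 0.27, adjusted p = 0.0135) in PW vs CK. PSBQ1, with 0.95 (SE 0.25, adjusted p = 0.0205), was just under the 2-fold limit. The values in HS vs CK were 0.53 (SE 0.28, adjusted p = 0.168) for PSBP1, 0.20 (SE 0.25, adjusted p = 0.558) for PSBQ1 and 0.41 (SE 0.26, adjusted p = 0.244) for PSBQ2. The PW vs CK call of PSBQ2 was lost without CK replicate 1 or CK replicate 3, with a log2 fold change of 0.99, adjusted p = 0.0553 and 1.1, adjusted p = 0.0531.

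PSBR, a small protein that helps hold PSBP and PSBQ in place, was the gene with the highest level per kilobase of exon in all 3 treatments. PSBR (AT1G79040) stood at 3383, 4696 and 3939 CPM in the CK libraries, 12271, 14439 and 13763 in the PW libraries and 14798, 14772 and 6866 in the HS libraries. HS replicates 1 and 2 lay above all PW libraries, and HS replicate 3 lay between CK and PW. It rose by 1.75 (SE 0.34, adjusted p = 0.00517) in PW vs CK and by 1.6 (SE 0.34, adjusted p = 0.00611) in HS vs CK. Its 0.15 (SE 0.33, adjusted p = 0.767) in PW vs HS turned to -0.05 with library totals and to -0.14, adjusted p = 0.704 without HS replicate 3. PSBY (AT1G67740), a small membrane protein near cytochrome b559, stood at 521, 679.6 and 654 CPM in the CK libraries, 2585, 4559.9 and 3818 in the PW libraries and 2317, 2426 and 1536 in the HS libraries. The treatments did not overlap. Its rise of 2.56 (SE 0.30, adjusted p = 0.000564) in PW vs CK, 5.91-fold, was the largest of the 34 genes. It rose by 1.76 (SE 0.29, adjusted p = 0.00186) in HS vs CK, where FD1 alone rose more. Its 0.80 (SE 0.28, adjusted p = 0.0631) in PW vs HS passed without PW replicate 1 (1.0, adjusted p = 0.028).

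The remaining small subunits moved less. PSBW (AT2G30570), which stabilises the supercomplexes of photosystem II with its antenna, stood at 1185, 1734 and 1537 CPM in the CK libraries, 2354, 2895 and 3515 in the PW libraries and 2539.5, 2496 and 1409 in the HS libraries. PSBX (AT2G06520), a membrane subunit of the core, stood at 1059.8, 1434 and 1339.5 CPM in the CK libraries, 1572, 1957 and 3170.1 in the PW libraries and 1987, 1929.8 and 1275 in the HS libraries. PSBTN (AT3G21055), a small lumenal subunit, stood at 659, 909.8 and 872 CPM in the CK libraries, 1379, 1557 and 1864 in the PW libraries and 972, 917 and 716 in the HS libraries. All 3 were higher in every PW library than in any CK library and overlapped CK in HS. Their log2 fold changes in PW vs CK were 0.98 (SE 0.29, adjusted p = 0.0329) for PSBW, 0.81 (SE 0.31, adjusted p = 0.0755) for PSBX and 0.98 (SE 0.22, adjusted p = 0.0104) for PSBTN, none called. Without PW replicate 1 they passed, at 1.11, adjusted p = 0.0286 for PSBW, 1.0, adjusted p = 0.0357 for PSBX and 1.07, adjusted p = 0.0103 for PSBTN. So did PSBQ1 (1.08, adjusted p = 0.0169), PSAK (1.0, adjusted p = 0.033) and PETC (1.01, adjusted p = 0.0362). PSBQ1 also passed without CK replicate 2, and PSBTN without CK replicate 2 or 3.

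PSB27 and PSB28 bind photosystem II during its assembly and repair, a role best known from cyanobacteria. PSB27 (AT1G03600) stood at 201, 276 and 265 CPM in the CK libraries, 476, 469 and 644 in the PW libraries and 344, 351 and 273 in the HS libraries. PSB28 (AT4G28660) had the lowest level per kilobase of the 34 genes in each treatment and stood at 64.8, 85.2 and 83.1 CPM in the CK libraries, 135, 116 and 158 in the PW libraries and 83.0, 80.7 and 43.0 in the HS libraries. PSB27 rose by 1.1 (SE 0.21, adjusted p = 0.00478) in PW vs CK and overlapped CK in HS, with 0.38 (SE 0.21, adjusted p = 0.17). The PW vs CK call of PSB27 was lost without CK replicate 1 or PW replicate 3, at 0.96, adjusted p = 0.0244 and 0.93, adjusted p = 0.0167. PSB28 had 0.81 (SE 0.26, adjusted p = 0.0386) in PW vs CK, -0.17 (SE 0.25, adjusted p = 0.612) in HS vs CK and 0.99 (SE 0.26, adjusted p = 0.0211) in PW vs HS, the last just under the 2-fold limit. It passed without PW replicate 2 (1.09, adjusted p = 0.0282), HS replicate 1 (1.14, adjusted p = 0.0307) or HS replicate 2 (1.11, adjusted p = 0.0383). HS replicate 3 was its lowest library of all 9.

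**Figure D3:**
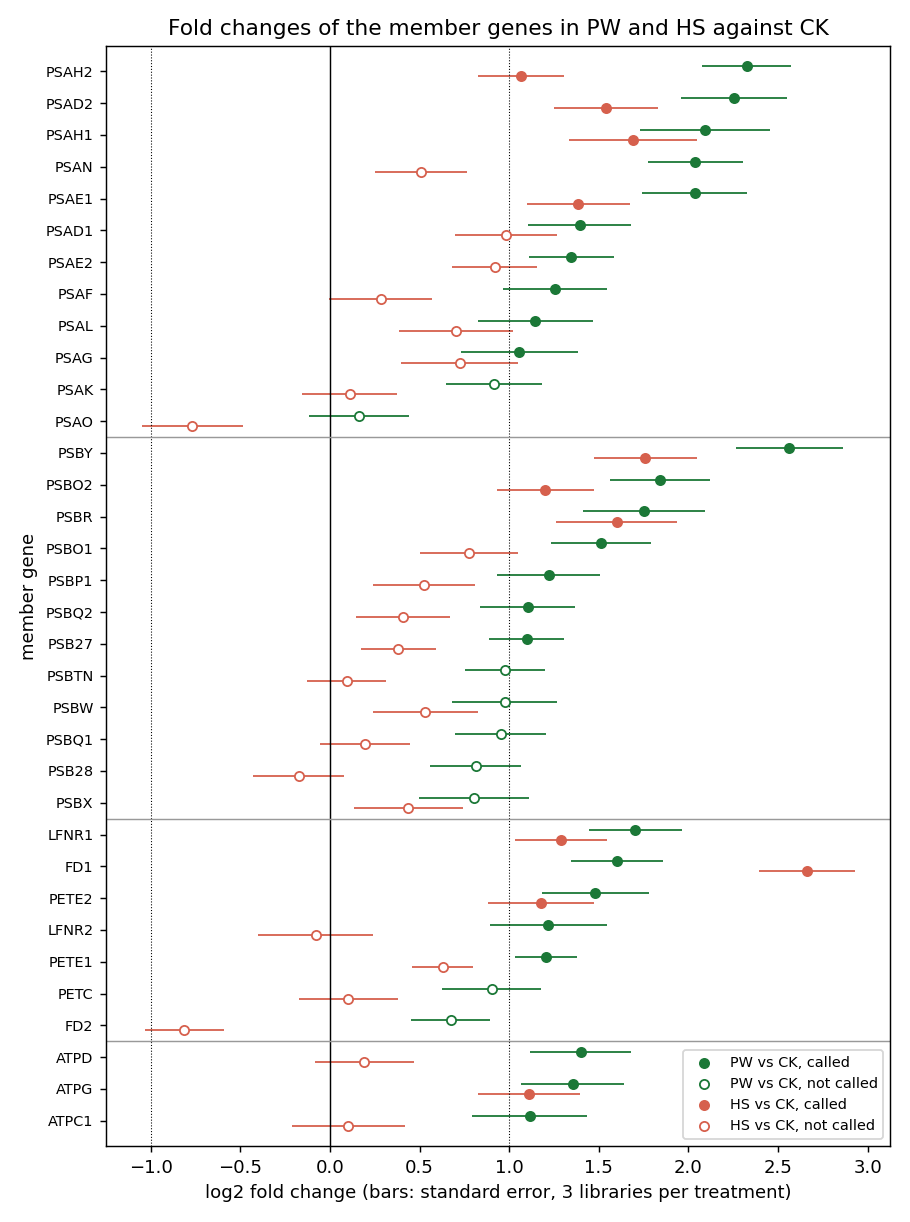
Log2 fold change with its standard error (bars, 3 libraries per treatment) of each gene in PW vs CK (green) and HS vs CK (red), filled where called, with dotted lines at a 2-fold change. PW vs CK lies to the right of HS vs CK in all genes except FD1, with 2.66 for HS (red) and 1.6 for PW (green), and PSBR shows the smallest gap, with 1.6 and 1.75.

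Among the 7 electron carriers 5 were called higher in PW vs CK and 3 in HS vs CK. PW vs HS had 2 calls higher and 1 lower. PETC (AT4G03280), the Rieske iron-sulphur protein of cytochrome b6f, stood at 701, 1004 and 915 CPM in the CK libraries, 1394, 1728 and 1777 in the PW libraries and 1127, 1087 and 599 in the HS libraries. Its 0.90 (SE 0.28, adjusted p = 0.0356) in PW vs CK was under the 2-fold limit, with no overlap, and its 0.10 (SE 0.28, adjusted p = 0.788) in HS vs CK changed sign with the scaling. PETE2 (AT1G20340), the major plastocyanin gene, stood at 1563, 2196 and 2095 CPM in the CK libraries, 4457, 5908 and 5964 in the PW libraries and 4933, 5414 and 2876 in the HS libraries. PETE1 (AT1G76100), the minor, stood at 147, 160.0 and 155 CPM in the CK libraries, 334, 315 and 416 in the PW libraries and 239, 269.7 and 207 in the HS libraries. Every warmed library lay above every CK library in both plastocyanin genes. PETE2 rose by 1.48 (SE 0.30, adjusted p = 0.0062) in PW vs CK and 1.18 (SE 0.30, adjusted p = 0.0132) in HS vs CK. PETE1 rose by 1.2 (SE 0.17, adjusted p = 0.00132) in PW vs CK and had 0.63 (SE 0.17, adjusted p = 0.0182) in HS vs CK. The HS vs CK call of PETE2 was lost without CK replicate 1 (1.03, adjusted p = 0.0515) or HS replicate 2 (1.01, adjusted p = 0.0548).

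The ferredoxin genes parted in HS. FD1 and FD2 encode the leaf-type ferredoxins that accept electrons from photosystem I, FD2 being the major form in leaves and FD1 the minor. FD1 (AT1G10960) stood at 136, 139.9 and 158 CPM in the CK libraries, 328, 498 and 489.5 in the PW libraries and 1066, 1046 and 632 in the HS libraries. FD2 (AT1G60950) stood at 956, 1327 and 1477 CPM in the CK libraries, 1907, 2044 and 2049 in the PW libraries and 672, 838 and 629.6 in the HS libraries. The treatments did not overlap in either gene, but their order was HS, PW, CK in FD1 and PW, CK, HS in FD2. FD1 rose by 2.66 (SE 0.27, adjusted p = 0.000222) in HS vs CK, a 6.33-fold change and the largest of the 34 genes in that comparison. In PW vs CK it rose by 1.6 (SE 0.26, adjusted p = 0.00219). FD2 had -0.81 (SE 0.22, adjusted p = 0.0181) in HS vs CK, so that CK stood at 1.76 times the level of HS, short of the 2-fold limit. In PW vs CK it had 0.67 (SE 0.22, adjusted p = 0.0451).

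Between the warm treatments FD2 was higher in PW by 1.49 (SE 0.22, adjusted p = 0.0019). FD1 was lower in PW, with -1.06 (SE 0.25, adjusted p = 0.015). This call was lost without PW replicate 1 (-0.89, adjusted p = 0.0376), HS replicate 1 (-0.94, adjusted p = 0.0512) or HS replicate 2 (-0.96, adjusted p = 0.0542). It was also lost when the PW and HS libraries were fitted without CK (adjusted p = 0.0562). FD1 shares 78 of its annotated bases with AT1G10950 on the same strand, and the counts of AT1G10950 came to 89.7% of those of FD1 under CK, 19.95% under PW and 9.49% under HS. The level of AT1G10950 itself was 125, 134 and 128 CPM in the CK libraries, 80.7, 86.6 and 93.0 in the PW libraries and 72.7, 82.1 and 103 in the HS libraries. It was lower in the 6 warmed libraries, where FD1 was higher. Reads in the shared stretch could have been given to either gene or dropped, as the handling of overlaps was not given in the sources used here.

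**Figure D4:**
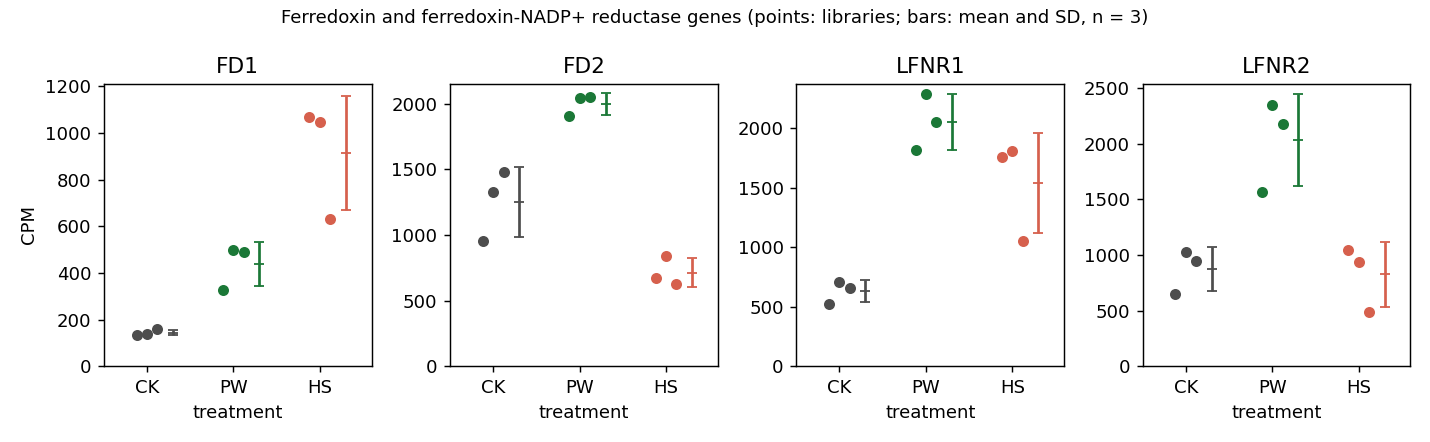
Level in CPM (vertical axis, from 0) of the 2 ferredoxin and the 2 ferredoxin-NADP+ reductase genes in each library (points), with mean and SD (bars, n = 3). FD1 is highest in HS (632 to 1066 CPM) and FD2 lowest there (629.6 to 838 CPM), and LFNR2 is high in PW alone.

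Ferredoxin-NADP+ reductase is encoded for leaves by LFNR1, whose protein anchors the enzyme to the thylakoid, and LFNR2. LFNR1 (AT5G66190) stood at 525, 706 and 659 CPM in the CK libraries, 1819.5, 2285 and 2047 in the PW libraries and 1756, 1803 and 1054 in the HS libraries. LFNR2 (AT1G20020) stood at 649, 1028 and 943 CPM in the CK libraries, 1569, 2352 and 2175 in the PW libraries and 1049, 937 and 492 in the HS libraries. LFNR1 was above CK in all 6 warmed libraries, while LFNR2 was above CK in the 3 PW libraries and overlapped CK in HS. LFNR1 rose by 1.7 (SE 0.26, adjusted p = 0.00171) in PW vs CK and 1.29 (SE 0.26, adjusted p = 0.00452) in HS vs CK. LFNR2 rose by 1.22 (SE 0.32, adjusted p = 0.0204) in PW vs CK and by 1.3 (SE 0.33, adjusted p = 0.0181) in PW vs HS, and had -0.08 (SE 0.32, adjusted p = 0.859) in HS vs CK. The PW vs CK call of LFNR2 was lost without CK replicate 1 or 3 or PW replicate 2 or 3, and its PW vs HS call without PW replicate 2 or 3. With single libraries left out its log2 fold change lay between 1.04 and 1.37 in PW vs CK and between 1.03 and 1.5 in PW vs HS.

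In the chloroplast ATP synthase 3 of 3 genes were called higher in PW vs CK and 1 in HS vs CK. PW vs HS had 2 calls higher. ATPC1 encodes the gamma subunit, the central shaft that carries the redox switch of the enzyme. ATPC1 (AT4G04640) stood at 725, 1031 and 969 CPM in the CK libraries, 1359, 2376 and 2159 in the PW libraries and 1193, 1123 and 609 in the HS libraries. ATPD (AT4G09650), the delta subunit at the top of the outer stalk, stood at 400.4, 605 and 589.9 CPM in the CK libraries, 1037, 1642 and 1532 in the PW libraries and 704, 681 and 436 in the HS libraries. ATPG (AT4G32260), a membrane stalk subunit of the b type, stood at 505, 679 and 630.4 CPM in the CK libraries, 1156, 1700.4 and 1781 in the PW libraries and 1535, 1519.9 and 857 in the HS libraries. ATPC1 and ATPD overlapped between HS and CK with PW above, and ATPG was above CK in all 6 warmed libraries. The rises in PW vs CK were 1.11 (SE 0.32, adjusted p = 0.0276) for ATPC1, 1.4 (SE 0.28, adjusted p = 0.00609) for ATPD and 1.35 (SE 0.29, adjusted p = 0.0077) for ATPG. ATPG rose by 1.11 (SE 0.29, adjusted p = 0.0143) in HS vs CK, and ATPD and ATPC1 were higher in PW than in HS by 1.21 (SE 0.28, adjusted p = 0.0132) and 1.01 (SE 0.32, adjusted p = 0.044). ATPC1 lost its call in PW vs CK when any CK library, PW replicate 2 or PW replicate 3 was left out (between 0.95 and 1.32). It lost its call in PW vs HS without any of the 9 libraries except PW replicate 1 (between 0.76 and 1.22). ATPG lost its call in HS vs CK without CK replicate 1, HS replicate 1 or HS replicate 2 (between 0.98 and 1.34).

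Set against each other, the genes of a pair are free of the scaling between libraries, because the ratio of their counts is taken within a library. The ratio was compared over the 3 treatments for 8 pairs by an exact permutation test of the F statistic, whose smallest p with 3 libraries each is 0.00357, and p-values were adjusted over the 8 pairs. The ratio differed in 5 of the 8. FD1 held 12.5, 9.54 and 9.65% of the counts of the FD pair in the CK libraries, 14.7, 19.6 and 19.3% in the PW libraries and 61.3, 55.5 and 50.1% in the HS libraries. FD2, the gene with more counts in CK, had fewer in all 3 HS libraries. The mean log2 ratio was -3.10 ± 0.24 under CK, -2.21 ± 0.28 under PW and 0.33 ± 0.33 under HS (SD, n = 3, exact permutation p = 0.00357, the smallest possible, adjusted p = 0.0143). The summed level of the pair was 1398 ± 278 CPM under CK, 2439 ± 177 under PW and 1628 ± 326 under HS. In the sum HS overlapped CK, and in the shares it did not.

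LFNR1 held 44.7, 40.7 and 41.1% of its pair in the CK libraries, 53.7, 49.3 and 48.5% in the PW libraries and 62.6, 65.8 and 68.2% in the HS libraries. The log2 ratio went from -0.46 ± 0.13 to 0.03 ± 0.16 and 0.93 ± 0.18 (SD, exact permutation test, adjusted p = 0.0143), and the treatments did not overlap. In this pair, as in FD, PW lay between CK and HS.

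The 2 pairs of the stromal face of photosystem I shifted in opposite senses. PSAD1 held 74.9, 72.2 and 71.9% of the PSAD pair in the CK libraries, 62.2, 60.3 and 57.5% in the PW libraries and 65.3, 66.0 and 60.9% in the HS libraries. This was a shift toward PSAD2, the gene with fewer counts (log2 ratio 1.43 ± 0.12, 0.59 ± 0.14 and 0.84 ± 0.17, exact permutation test, adjusted p = 0.0143). PSAE1 held 75.7, 77.0 and 76.9% of the PSAE pair in the CK libraries, 82.1, 85.8 and 83.8% in the PW libraries and 81.6, 82.4 and 81.6% in the HS libraries. This was a shift toward the gene with more counts (log2 ratio 1.71 ± 0.06, 2.39 ± 0.20 and 2.17 ± 0.04, exact permutation test, adjusted p = 0.0143). In both pairs the 6 warmed libraries lay apart from CK, and PW and HS overlapped. PSBO1 held 81.7, 81.1 and 80.8% of its pair in the CK libraries, 77.1, 77.0 and 78.0% in the PW libraries and 74.6, 76.8 and 77.7% in the HS libraries (exact permutation test, adjusted p = 0.0229), a small shift toward PSBO2 with the same arrangement.

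The other 3 pairs did not pass the test. For PSAH1/PSAH2 the adjusted p was 0.0939 (exact permutation test). PSAH1 held 33.6, 34 and 33.2% in the CK libraries, 22.8, 26.2 and 39.5% in the PW libraries and 46.5, 43.3 and 40.1% in the HS libraries. PW replicate 3 stood apart from the other PW libraries, and without it the exact permutation test gave an adjusted p of 0.00952, over 8 pairs. For PETE1/PETE2 the adjusted p was 0.0939 and for PSBQ1/PSBQ2 0.175 (exact permutation tests). Over the 9 libraries PETE1 held between 4.62% and 8.6% of its pair and PSBQ1 between 37.7% and 42.9%. The first-listed transcripts of the genes of a pair were from 71.3% to 81.6% identical over their aligned bases, and their longest identical run was from 17 to 35 bases.

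**Figure D5:**
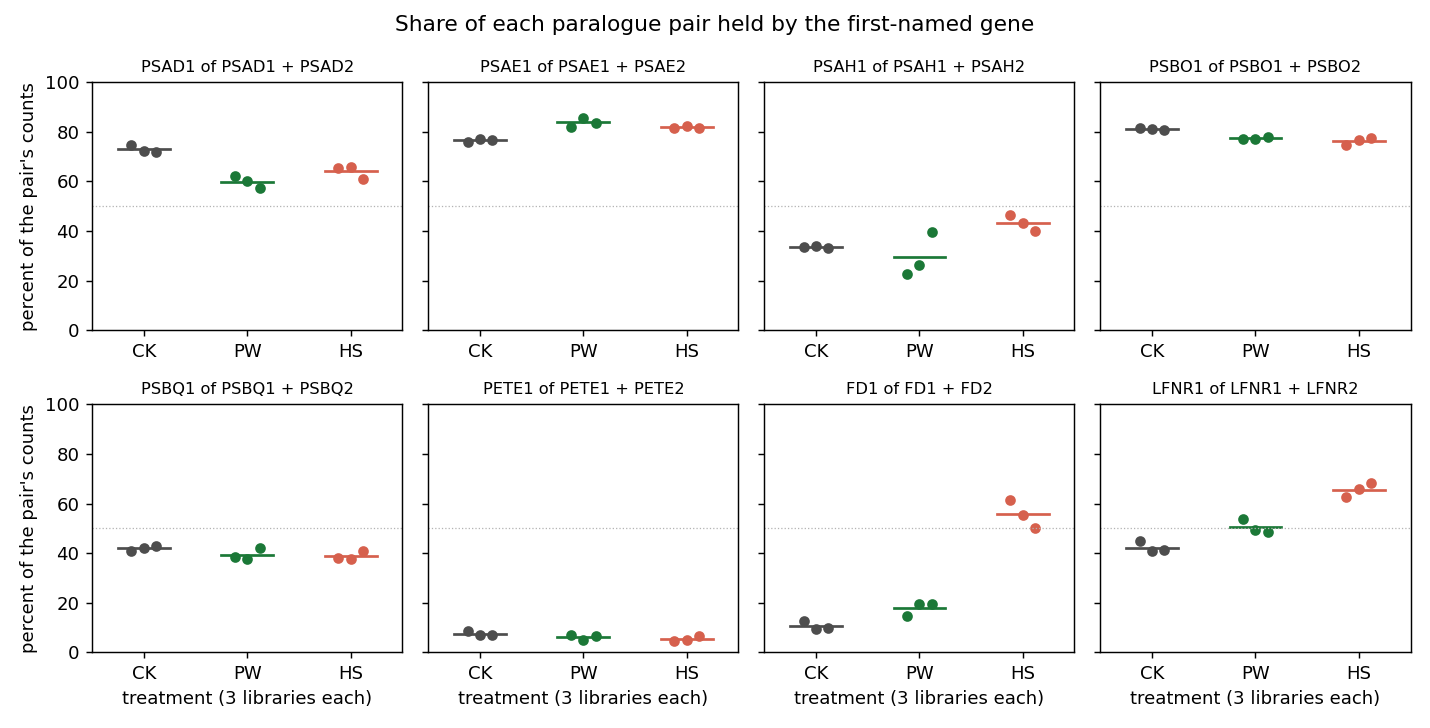
Percent of the counts of each of 8 pairs held by the gene named before the slash or plus sign (vertical axis, 0 to 100), by library (points) with the mean (line), for the 3 treatments. FD1 moves from 12.5, 9.54 and 9.65% in CK to 61.3, 55.5 and 50.1% in HS, and LFNR1 crosses 50% between CK and HS.

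Per kilobase of annotated exon, which allows genes to be set beside each other, PSBR had the highest mean level in every treatment, at 5109.7 CPM per kilobase in CK, 17208 in PW and 15491 in HS, and PSB28 the lowest, at 78.8, 138 and 69.9. Within photosystem I the highest was PSAO in CK (2757) and PSAE1 in PW (6554) and HS (4175), and the lowest was PSAH1 in all 3 (182, 779 and 588). The highest was 15.1 times the lowest in CK, 8.42 times in PW and 7.10 times in HS. The 3 ATP synthase subunits stood within 1.29-fold of each other in CK and 1.13-fold in PW, but within 2.21-fold in HS, where ATPG led. FD1 was rank 32 of the 34 per kilobase in CK, 31 in PW and 24 in HS, and FD2 was rank 16, 20 and 27. The annotated exon length covers all transcript models of a gene. Overlaps with other genes, the longest of 788 bases in PSAH1, were not corrected for, here or in the pair ratios.

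The count table was matched to genes without a stated use of strand, and 11 of the 34 genes overlap another annotated gene. Apart from FD1 the overlaps with counted genes were of 2 to 788 bases, and the counts of the other gene came to between 0.031% and 9.22% of those of the member in any treatment. Those counts do not show reads that may have been dropped from a shared stretch. The longest overlap was of PSAH1, which has 1300 bases of exon, with AT3G16130 on the opposite strand. PSAE1 and PSAG each overlap a gene model on the opposite strand, AT4G28755 over 436 bases and AT1G55673 over 479 bases, for which no counts were used here.

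Other genes of the pathway were taken from 6 lists, 74 genes in all, which were drawn up with earlier results known. Of the 14 assembly and repair factors of photosystem II, 11 were called higher in PW vs CK and 3 in HS vs CK. PW vs HS had 5 calls higher, and 0 were lower in any comparison by edgeR. The largest rise in PW vs CK was of HCF173, needed for translation of the D1 mRNA, at 2.39, adjusted p = 0.0037. The calls in HS vs CK were TLP18.3, a factor of the repair cycle, at 1.64, adjusted p = 0.00322, LPA3 at 1.22, adjusted p = 0.00398 and LPA19 at 1.08, adjusted p = 0.00161. The calls in PW vs HS were HCF173 (1.68, adjusted p = 0.018), PPL1 (1.45, adjusted p = 0.00069), CYP38 (1.43, adjusted p = 0.00114), HCF244 (1.05, adjusted p = 0.0289) and LQY1 (1.02, adjusted p = 0.0175). Of the 9 assembly factors of photosystem I and cytochrome b6f, 4 were called higher in PW vs CK, HCF164 (1.26, adjusted p = 0.0114), CCS1 (1.12, adjusted p = 0.0272), Y3IP1 (1.08, adjusted p = 0.00179) and PSA2 (1.06, adjusted p = 0.0153). In HS vs CK 1 of the 9 was called, HCF164 (1.38, adjusted p = 0.00623), a share close to the 11.3% of all genes, and in PW vs HS 0 were called by edgeR, where 2 had an adjusted p under 0.05.

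Of the 8 genes of cyclic electron flow and thylakoid phosphorylation, 6 were called higher in PW vs CK and 6 in HS vs CK, in each case PGR5, PGRL1A, PGRL1B, STN7, STN8 and CAS. PGRL1B, a partner of PGR5 in cyclic flow, had the largest rise in HS vs CK, 2.19, adjusted p = 0.000441, against 1.15, adjusted p = 0.00892 in PW vs CK. It was also the gene of the list called in PW vs HS, where it was lower in PW at -1.04, adjusted p = 0.0158. This was 1 of 8, where 7.57% of all tested genes were called lower. CAS, a thylakoid calcium-sensing protein, had the largest rise in PW vs CK, at 1.87, adjusted p = 0.00125. Of 9 further nuclear genes, which are paralogues of the 34 or encode other carriers and subunits such as PETM of cytochrome b6f, 8 were tested. PSBP2 was called higher in HS vs CK (1.93, adjusted p = 0.000132) and in PW vs CK (1.95, adjusted p = 0.000212), and FD3, the ferredoxin of roots and other non-green tissue, was called lower in PW vs CK (-1.46, adjusted p = 0.0249). Each was 1 of the 8, near the share over all tested genes. That share was 11.3% higher in HS vs CK, and 8.82% higher and 7.6% lower in PW vs CK. Of the root markers PYK10 alone was well above 0, at 15.7 to 30.2 CPM in CK and 0.0963 to 53.8 in PW, and the part of root tissue in the fall of FD3 was not tested.

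The chloroplast genome encodes the partners of these subunits, and 17 such genes were tested. Plastid and mitochondrial genes together took from 0.734% to 1.23% of the counts, so these are levels of the small part of organelle RNA that reached the libraries. In PW vs CK 8 were called higher and 0 lower. HS vs CK had 6 calls higher and 1 lower, and PW vs HS had 1 higher and 0 lower. The summed level of the 17 was 3569 to 4519 CPM in CK, 4068 to 5315 in PW and 2747 to 3383 in HS. In HS 10 of the 17 lay above CK without overlap and 4 below it, against 29.7% and 28.2% of all genes. The 4 were petA and the uncalled psbC (-0.98, adjusted p = 0.0323), psbD (-0.68, adjusted p = 0.032) and atpB (-0.61, adjusted p = 0.0517). atpB had the highest level of the 17 in each treatment. In PW psbC and psbD again lay below CK, uncalled. The largest rise in PW vs CK was of atpA, an ATP synthase subunit, at 2.24, adjusted p = 0.000723, and in HS vs CK of psbE, a cytochrome b559 subunit, at 1.63, adjusted p = 0.00623. petA, encoding cytochrome f, was called lower in HS vs CK, at -1.04, adjusted p = 0.0106, and psaB, a core protein of photosystem I, was called higher in PW vs HS, at 1.11, adjusted p = 0.0393. Of the 17 genes of the light-harvesting antenna, which bind chlorophyll around both photosystems, 17 were called higher in PW vs CK and 10 in HS vs CK. PW vs HS had 8 calls higher. The largest rises were of LHCB2.4 in PW vs CK (4.63, adjusted p = 0.000302) and in PW vs HS (2.45, adjusted p = 0.00311), and of LHCB1.1 in HS vs CK (2.75, adjusted p = 0.000205). The LHCB1 and LHCB2 genes are near-identical copies, so the division of reads among them is uncertain. Over the 6 lists 47 genes were called higher and 1 lower in PW vs CK, 27 and 1 in HS vs CK, and 14 and 1 in PW vs HS. Over all tested genes the shares called higher and lower were 8.82% and 7.6%, 11.3% and 10.5%, and 6.92% and 7.57%. Library totals in place of TMM gave 28 and 3 in PW vs CK, where 4.44% and 16% of all genes were called. They gave 20 and 3 in HS vs CK (7.93% and 12%) and 7 and 2 in PW vs HS (4.27% and 11.4%).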

How the data were processed

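The data are RNA-seq counts from 9 Arabidopsis leaf libraries, 3 each of CK, PW and HS. Per the labels and the paper's methods, the authors mapped reads to TAIR10 with TopHat2 and deposited raw counts per gene, without normalization; the submitters' processing notes also name CASAVA 1.8 and HTSeq 0.6.1. Strand use, the handling of shared reads and the annotation version were not given in the sources used here. Library totals ran from 11660970 to 17768334 counts.

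A gene was tested if 3 or more libraries had 10 or more counts for it, which held for 18952. edgeR 4.0.16 in R 4.3.3 was used with TMM scaling and the quasi-likelihood test, with 1 coefficient per treatment and all 9 libraries in the fit. P-values were adjusted over all tested genes by Benjamini-Hochberg, and a call needed both an adjusted p under 0.05 and a 2-fold or larger change. Ratios within pairs were taken on counts with 0.5 added and tested by exact permutation. A fold change is named for the treatment that comes first. Figures were drawn with Python 3.11.15 and matplotlib 3.10.9.

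Positions and promoters came from TAIR10.1 (RefSeq), and no position was carried over from TAIR10. Same-numbered CK and PW libraries deviated together from their treatment means (correlations across genes of 0.29, 0.31 and 0.14), whereas those of HS and CK (-0.32, 0.20 and -0.10) and of PW and HS (-0.50, 0.45 and 0.08) did not. Libraries of different number reached 0.54 (PW replicate 1 with HS replicate 3) and 0.33 (HS replicate 3 with CK replicate 1). Between CK and PW those of different number all lay below 0. The deviations within a treatment add up to 0 for each gene, which favours such values beside positive same-numbered ones. They are therefore no separate evidence. The alternatives were library totals, DESeq2's size factors and its Wald test (version 1.42.0), organelle genes left out, other filters, only the treatments compared, the replicate number as a block, other call rules and each library left out.

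The 34 genes, the 6 pathway lists and the marker lists were chosen with earlier results of these data known, and the clock genes were added after the values of the 34 genes were seen. All 34 genes are named. Of the pathway lists, the called genes with the largest change and every called gene of a list with 5 or fewer calls are named. The scripts were tested on simulated data. Nothing in the sources says more of the replicates than that they are biological, so p-values measure the spread between these libraries. No fold changes or p-values of the authors were used.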

Additional observations from a re-analysis of the deposited data

How the results depend on the processing

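The 25, 11 and 7 calls of PW vs CK, HS vs CK and PW vs HS changed by more than 1.5 times under few of the alternatives. With glmTreat, which tests against a 2-fold change in place of 0, 7, 2 and 0 genes passed, against 4.45%, 6.93% and 3.95% of all tested genes. With library totals PW vs CK fell to 12 calls, and the calls among other pathway genes fell from 48 to 31 in PW vs CK and from 15 to 9 in PW vs HS. With the adjusted p alone PW vs HS rose to 13, where 26.7% of all tested genes passed. Leaving out each library in turn gave 19 to 31 calls in PW vs CK, 8 to 13 in HS vs CK and 5 to 9 in PW vs HS. The share of all tested genes called in either direction ran from 12.7% to 19.5%, 17.0% to 30.6% and 11.7% to 20.7%. Without HS replicate 3, PW vs HS had 6 calls, where 20.7% of all tested genes were called. With the replicate number as a block there were 23, 11 and 7 calls, and 25 in PW vs CK with the CK and PW libraries alone. Over all 9 libraries the block ended the calls of PSAG and PSAL in PW vs CK and of ATPC1 in PW vs HS (adjusted p = 0.0766), brought PSB28 past the threshold in PW vs HS (adjusted p = 0.0462) and changed no other call. Of the pairs, PSAH1/PSAH2 passed without PW replicate 3, and over the libraries left out its largest difference between treatment means ran from 0.67 to 1.24 in log2 ratio.

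Changes of sign were confined to small uncalled log2 fold changes. In HS vs CK library totals gave -0.088 for PSAK, -0.093 for PSBTN, -0.10 for PETC, -0.10 for ATPC1 and -0.0035 for ATPD. Leaving out a CK library gave -0.046 for PSAK, -0.046 for PSBTN, -0.042 for PETC and -0.046 for ATPC1 (replicate 1) and 0.045 for LFNR2 (replicate 2). Leaving out an HS library gave -0.046 for PETC and -0.064 for ATPC1 (replicate 1), -0.0098 for PSAK, -0.0076 for PETC and -0.0023 for ATPC1 (replicate 2), and 0.078 for PSB28 and 0.19 for LFNR2 (replicate 3). In PW vs CK PSAO had -0.26 with library totals and -0.020 without PW replicate 3. In PW vs HS PSBR had -0.050 with library totals, -0.14 without HS replicate 3 and -0.068 without CK replicate 1, PW replicate 1 and HS replicate 3. The cause of these changes was not tested.

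With 3 libraries per treatment, a change near 2-fold was on the edge of what was called, and an uncalled gene is not shown to be unchanged. Depth was not the limit for any of the 34 genes, whose counts were far above the filter. The scaling decides how many of them are called in PW vs CK, and the sources give no spiked-in standard that would fix it.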

Other observations

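Besides CCA1, PRR9, TOC1 and LUX, 3 other clock genes were examined. LHY, the partner of CCA1, stood at 0.185 to 0.320 CPM in CK, 2.47 to 5.10 in PW and 2.06 to 2.33 in HS. GI stood at 125 to 149 CPM in CK, 76.9 to 125 in PW and 125 to 157 in HS, and PRR5 at 31.4 to 49.96, 39.0 to 53.2 and 20.9 to 32.4. GI and PRR5 overlapped between CK and each warm treatment, and LHY did not. Of the 3 epidermal markers 0 were called in any comparison by edgeR, where ATML1 alone had an adjusted p under 0.05, when HS was compared with CK and with PW. Of the 3 guard cell markers 1 was called higher in PW vs CK and 1 in PW vs HS, and of the 3 vascular markers 1 was called higher in PW vs CK and, in HS vs CK, 1 higher and 1 lower. Over all tested genes 8.82% were called higher in PW vs CK and 6.92% in PW vs HS. In HS vs CK 11.3% were called higher and 10.5% lower. With 3 genes per list, single calls do not describe a cell type. The 3 seed storage genes were too low to be tested.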
